A study of Mus musculus with 2 samples.

Results

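The heat shock chaperones are a set of 9 genes named here by symbol, out of 32589 genes listed in the deposited single-cell RNA-Seq tables, and all 9 were detected in both libraries. They are *Hspa1a* and *Hspa1b*, *Hspa8*, *Hsph1*, *Dnajb1*, *Hsp90aa1* and *Hsp90ab1*, *Hspd1* and *Hspe1*. Cells came from tumor-bearing livers of mice in which CCA had been induced by hydrodynamic tail vein injection of an active form of Notch (NICD) together with myristoylated AKT. Both groups were of the shYT genotype, in which doxycycline switches on shRNAs against *Yap1* and *Wwtr1* (TAZ) in the whole animal, here from day 25. One group was given PBS and the other an anti–PD-1 antibody (clone RMP1-14) on days 26, 29 and 32, and livers were harvested on day 33. Each group is 1 library, which leaves no replicate spread to judge a difference by, so no p-value was computed, and the effect of the shRNAs was not compared. The labels do not give the sex, the number of animals or the shRNA line behind a library. A legend of the study gives several samples per group, and no label ties a cell to one of them. In both groups livers were digested for 45 minutes at 37 °C, and red cells, debris and dead cells were removed before loading.

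Heat shock chaperones bind unfolded proteins and help them to fold, to be kept soluble or to be handed on for degradation. In resting cells the heat shock factor HSF1 is held inactive, and when unfolded protein accumulates it binds repeats of the unit nGAAn upstream of chaperone genes. *Hspa1a* and *Hspa1b* are the stress-induced HSP70 genes, whereas *Hspa8* and *Hsp90ab1* are made at high levels without stress. In tissue work these genes are also known to respond to the enzymatic preparation of cells.

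The 2 stress-induced HSP70 genes lie side by side on chromosome 17 of mm10 (GRCm38) on the reverse strand, with *Hspa1b* (ENSMUSG00000090877) at 34956436 to 34959238 and *Hspa1a* (ENSMUSG00000091971) at 34969190 to 34972156, separated by 9951 bases, and each has a single exon. Their upstream sequences are shown because these were the members that differed most between the libraries. Each run holds the 250 bases before the annotated start (RefSeq, GRCm38.p6), 5′ to 3′ on the gene's strand, at chr17:34972157-34972406 and chr17:34959239-34959488, and capitals mark the match to GAANNTTC, 2 facing units of the HSF1 motif.
Hspa1a: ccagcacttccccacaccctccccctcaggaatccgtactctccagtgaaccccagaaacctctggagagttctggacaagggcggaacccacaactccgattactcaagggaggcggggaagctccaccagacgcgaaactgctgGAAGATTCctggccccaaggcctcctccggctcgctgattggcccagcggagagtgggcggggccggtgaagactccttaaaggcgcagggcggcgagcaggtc
Hspa1b: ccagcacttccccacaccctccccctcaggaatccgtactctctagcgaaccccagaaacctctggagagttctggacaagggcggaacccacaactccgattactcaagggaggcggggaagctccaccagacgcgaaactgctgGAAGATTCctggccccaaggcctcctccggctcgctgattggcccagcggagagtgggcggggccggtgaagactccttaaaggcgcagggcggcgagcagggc
Both sequences held the match at position −104 from the start site. They differed at 3 of the 250 bases, namely C44T, T47C and T249G, with positions counted from 1 at the 5′ end, the base of *Hspa1a* first and that of *Hspa1b* last. None of the 3 lies in the match.

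A second element lies upstream of *Hspe1* (chromosome 1, 55088132 to 55091307, forward strand) and inside the annotated span of *Hspd1* (55077835 to 55088243, reverse strand), the head-to-head genes of the mitochondrial HSP10 and HSP60. Their spans share 112 bases. The element is shown on the strand of *Hspe1*, at chr1:55088053-55088082, with the alternating TTC and GAA units and the bases between them in capitals.
Hspe1: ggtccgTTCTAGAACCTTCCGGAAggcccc
The capitals begin at position −89 from the *Hspe1* start of the promoter table, which is not the first base of the span given here, and the element is read in reverse on the strand of *Hspd1*. It is upstream of 1 of the 2 *Hspd1* starts in the promoter table and downstream of the other. Of the 6 members with an entry in the promoter table, 5 (*Hspa1a*, *Hspa1b*, *Hspd1*, *Hspe1* and *Hsph1*) held a match to GAANNTTC or TTCNNGAA within 250 bases before and 50 bases after a start, against 17.0% of 27025 genes. The 3-unit motif (GAANNTTCNNGAA or TTCNNGAANNTTC, which contains the shorter one) was found for *Hspd1*, *Hspe1* and *Hsph1*, against 0.662% of genes. In *Hsph1* it lies after the start, at position 16 from 1 annotated start and 37 from the other. *Hspd1* and *Hspe1* share the element above, and *Hspa1a* and *Hspa1b* have nearly the same upstream sequence, so these counts are not of independent genes. *Dnajb1* had an entry and no match, and *Hspa8*, *Hsp90aa1* and *Hsp90ab1* had no entry. A match is a description of the letters and not evidence of binding.

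The tables hold UMI counts, in which each UMI stands for 1 captured transcript. There were 19397 barcodes and 121713441 UMIs with PBS, and 19451 barcodes and 100807037 UMIs with anti–PD-1, and 219 barcodes occurred in both libraries. Keeping cells of 500 to 5000 genes, with mitochondrial UMIs of 10% or less, left 15531 and 16360 cells, with a median of 3159 and 2990 UMIs. Cells were assigned to classes by their marker genes, all class names mean "X-like", and 7 classes with at least 200 cells in both libraries are described. They held 3321 PBS and 3593 anti–PD-1 T cells, 507 and 676 NK cells, 998 and 1721 B cells, 1286 and 3095 neutrophils, 3943 and 2010 monocytes/macrophages, 744 and 1510 Kupffer cells, and 768 and 426 tumor cells. The libraries also differ in sex-linked transcripts, namely 18452 *Xist* UMIs with PBS and 11 with anti–PD-1, and 3113 and 15323 Y-linked UMIs, in that order. The treatment, the animals and the preparation of a library cannot be told apart.

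Over all kept cells, every member was at a higher level in the anti–PD-1 library, and the 2 inducible HSP70 genes stood out. *Hspa1a* was at 187 CPM (counts per 1e6 UMIs, 95% interval 184 to 190) with PBS and at 596 CPM (591 to 602) with anti–PD-1. This is a 3.19-fold difference and a log2 ratio of 1.65 (1.62 to 1.67). *Hspa1b* was at 109 and 314 CPM, a log2 ratio of 1.48 (1.44 to 1.51). The HSP110 gene *Hsph1*, whose product is a nucleotide exchange factor of HSP70, was at 91.1 and 158 CPM, a log2 ratio of 0.76. *Dnajb1*, an HSP40 that delivers clients to HSP70, was at 117 and 201 CPM, a log2 ratio of 0.75. The remaining 5 members had log2 ratios between 0.14 (*Hsp90ab1*) and 0.51 (*Hspe1*). These pooled values also carry the make-up of the libraries, which differed. Kupffer cells were 4.79% of kept cells with PBS and 9.23% with anti–PD-1, and monocytes/macrophages 25.4% and 12.3%. The pooled *Hsp90aa1* ratio of 0.38 lay above those of all 7 classes, the highest of which was 0.35. With a threshold of 2-fold, 2 of 9 members were higher and 0 lower, beside 3.01% of 9340 measured genes that were higher and 3.04% that were lower. Ratios have the anti–PD-1 level on top and are on the scale of log2(CPM + 5), and all intervals cover counting error only.

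Of 63 pairs of a member and a class, 59 had a ratio above 0, beside 33.6% of the 59224 pairs of a measured gene and a class. An interval wholly above 0 was found for 55 pairs, beside 15.2%. For 1 pair, *Hsp90ab1* in tumor cells, the interval lay wholly below 0, beside 35.2%. Intervals narrow with the UMIs of a gene, and measured genes start at 10 CPM, so these interval shares are not on equal terms. The 63 pairs come from the same 2 libraries and are not independent, and the members were chosen with earlier results of these data known. In 6 of the 7 classes *Hspa1a* and *Hspa1b* had the highest ratios of the 9, whereas in B cells *Hspe1* (0.62) and *Hsph1* (0.56) stood above them. The median log2 ratio of the 9 members ran from 0.30 in NK cells to 0.56 in tumor cells. The median over all measured genes lay between −0.27 in neutrophils and −0.03 in tumor cells. The plot of levels by class gives both libraries for each member.

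**Figure D1:**
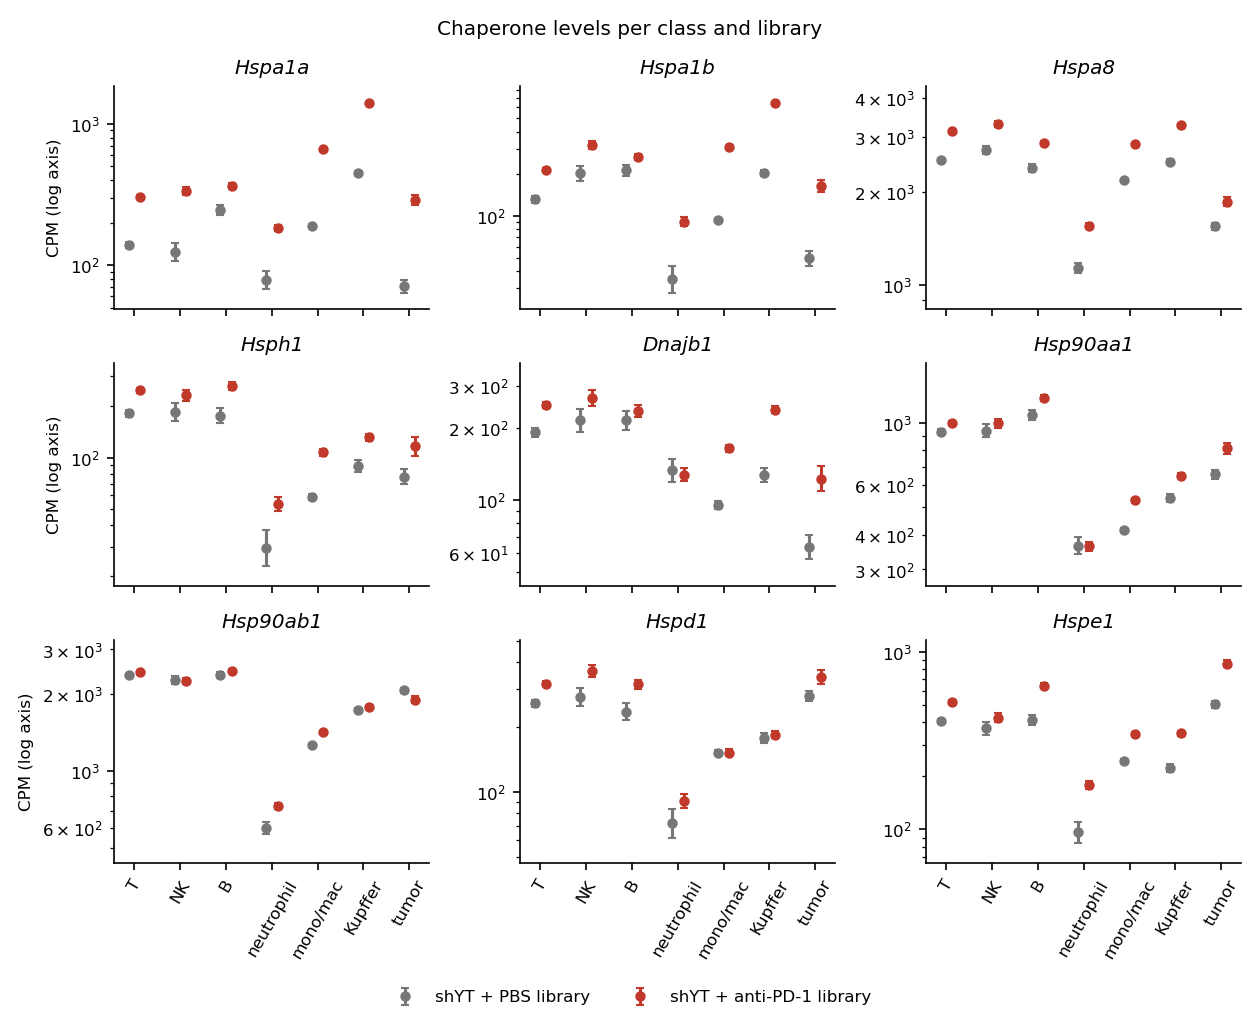
Level of each of the 9 chaperones (CPM, log axis, its range set per panel) in 7 cell classes of the PBS library (grey) and the anti–PD-1 library (red), 1 library per group. Points are summed UMIs of a class and bars are exact Poisson 95% intervals. *Hspa1a* and *Hspa1b* are higher in the red library in every class, and Kupffer cells reach 1406 CPM of *Hspa1a*.

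Among the described classes, *Hspa1a* had its highest level in Kupffer cells, the resident macrophages of the liver, in both libraries. In Kupffer cells it was at 450 CPM (434 to 466) with PBS and at 1406 CPM (1386 to 1426) with anti–PD-1, a log2 ratio of 1.63 (1.58 to 1.69). In monocytes/macrophages the levels were 190 and 660 CPM, a log2 ratio of 1.77 (1.73 to 1.81). In tumor cells they were 71.1 and 289 CPM, a log2 ratio of 1.95 (1.77 to 2.13), with an interval that overlaps that of monocytes/macrophages. With classes taken from clusters, tumor cells and Kupffer cells were both at 1.73. Kupffer cells had 19039 *Hspa1a* UMIs in the anti–PD-1 library, whereas tumor cells had 628, so the value in tumor cells is the less precise one. It also compares different clusters. Cluster 10 held 565 PBS and 28 anti–PD-1 tumor cells, and cluster 11, which was given to no class, held 50 and 326.

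In lymphocytes the ratio varied with the class and the cluster. T cells were at 139 CPM (132 to 146) and 303 CPM (295 to 312) of *Hspa1a*, a log2 ratio of 1.10 (1.02 to 1.18). Within the single T cell clusters compared it lay between 1.37 and 1.64. Cluster 8, with 90 PBS and 1075 anti–PD-1 T cells, was not compared. NK cells were at 124 and 336 CPM, a log2 ratio of 1.40 (1.18 to 1.63). B cells were at 247 and 362 CPM, a log2 ratio of 0.55 (0.41 to 0.68), the lowest of the 7. In B cells with Y-linked and no *Xist* UMIs, a gate that takes cells unevenly from the libraries, the log2 ratio was 2.05, and with free RNA subtracted it was 0.27 in all B cells. Of the 7 classes, B cells had the second highest level with PBS and the third with anti–PD-1, where the interval overlapped that of NK cells. The intervals of T cells and NK cells overlapped in the PBS library, as did those of neutrophils and tumor cells.

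*Hspa1b* followed the same course in myeloid and tumor cells, with log2 ratios of 1.69 in monocytes/macrophages (92.7 and 310 CPM), 1.65 in Kupffer cells (202 and 645 CPM) and 1.63 in tumor cells (49.5 and 164 CPM). It was under 2-fold in the lymphocyte classes taken whole, with 0.68 in T cells (0.60 to 0.77), 0.66 in NK cells (0.47 to 0.86) and 0.31 in B cells (0.16 to 0.46). Within the 3 T cell clusters compared it was at 1.09 to 1.15. In cells with Y-linked and no *Xist* UMIs it was at 1.34 in NK cells and 1.3 in B cells. In T cells and NK cells taken whole, *Hspa1a* differed more between the libraries than *Hspa1b*, with counting intervals that do not overlap. Spread between cells and animals is not in these intervals. The transcripts of the pair were identical at 90.7% of aligned bases over their whole length but at 55.2% over the last 500 bases, where no stretch of 90 bases was shared. The kit primes at the 3′ end, and how reads that match both genes were counted is not given in the sources used here. Their sum gave log2 ratios of 0.93 in T cells, 1.00 in NK cells, 0.44 in B cells, 1.23 in neutrophils, 1.76 in monocytes/macrophages, 1.65 in Kupffer cells and 1.86 in tumor cells.

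**Figure D2:**
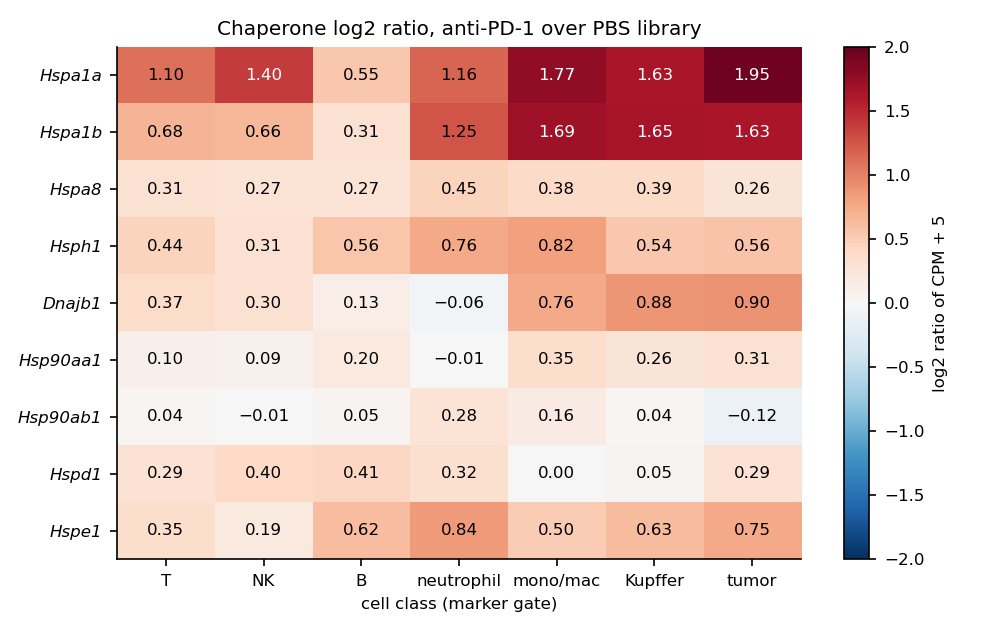
Log2 ratio (anti–PD-1 over PBS, CPM + 5) of each chaperone (rows) in each class (columns), 1 library per group, with the value in every field and red for higher in the anti–PD-1 library. The 10 fields of 1 or more all lie in the rows of *Hspa1a* and *Hspa1b*, and the lowest value is −0.12.

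Neutrophils had the lowest *Hspa1a* level of the anti–PD-1 library, at 79.0 CPM (68.0 to 91.2) with PBS and 183 CPM (174 to 193) with anti–PD-1, a log2 ratio of 1.16 (0.95 to 1.38). *Hspa1b* was at 35.0 and 90.3 CPM there, on 82 and 707 UMIs, a log2 ratio of 1.25. The *Hspa1a* level of neutrophils was 42.3% of that of the whole library with PBS and 30.7% with anti–PD-1. From the markers of other classes, free RNA was estimated at 22.8% and 26.6% of the UMIs of neutrophils, a median over classes whose single estimates ran from 4.47% to 93.2% and from 10.1% to 91.6%. After subtraction of that share the log2 ratios turned to −0.46 for *Hspa1a* and −0.35 for *Hspa1b*, so a difference in the neutrophils themselves was not shown. In Kupffer cells, monocytes/macrophages and tumor cells the same subtraction left *Hspa1a* at 1.66, 1.78 and 1.92. Single estimates ran up to 172% in Kupffer cells, 129% in monocytes/macrophages and 27.6% in tumor cells, so the subtraction is uncertain there too.

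Counted against 2-fold, both inducible HSP70 genes and no other member were higher in monocytes/macrophages (2 of 9, beside 3.62% of all measured genes), Kupffer cells (2 of 9, beside 2.02%), tumor cells (2 of 9, beside 2.98%) and neutrophils (2 of 9, beside 3.02%). In T cells (1 of 9, beside 1.72%) and NK cells (1 of 9, beside 2.33%) this held for *Hspa1a* alone, and in B cells for 0 of 9, beside 1.57%. No member was 2-fold lower in any of the 7 (0 of 9 in each), beside 0.77% of measured genes in T cells, 2.04% in NK cells, 1.51% in B cells, 4.65% in neutrophils, 0.532% in monocytes/macrophages, 0.33% in Kupffer cells and 1.94% in tumor cells. The counts for T cells and NK cells were 0 when the 5% of cells with the most member UMIs, which the same values chose, were left out (*Hspa1a* 0.87 in T cells and 0.89 in NK cells). In T cells the subtraction of free RNA also brought *Hspa1a* under 2-fold, to 0.80. In neutrophils the count was 0 without likely doublets (*Hspa1a* 0.99, *Hspa1b* 0.91), and both genes turned negative with free RNA subtracted. For the 5 smaller classes counts are given here, and a few of their values stand beside the immediate early genes below. Both *Hspa1* genes were 2-fold higher in CAFs (2 of 9, beside 3.63%) and endothelial cells (2 of 9, beside 3.82%). The count was 4 of 9 in plasma cells (beside 3.27%), 1 of 9 in conventional dendritic cells (beside 3.04%) and 0 of 9 in plasmacytoid dendritic cells (beside 6.64%). In these 5 classes 0 of 9 members were 2-fold lower, beside 1.97% of measured genes in CAFs, 3.44% in endothelial cells, 1.86% in plasma cells, 4.11% in conventional dendritic cells and 8.66% in plasmacytoid dendritic cells.

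Shares of cells with a UMI moved with the levels. After each cell was thinned to 1000 UMIs, *Hspa1a* was found in 25.8% (22.7% to 29.2%) of the Kupffer cells with PBS and 57.6% (55.0% to 60.2%) with anti–PD-1. In monocytes/macrophages the shares were 14.6% and 33.6%, and in tumor cells 6.8% (5.1% to 8.9%) and 21.1% (17.1% to 25.6%). T cells had 10.8% and 17.4%. In B cells the shares were 16.8% and 20.9%, with intervals that overlap, and neutrophils had the lowest, 5.1% and 10.2%. Without thinning, Kupffer cells had 69.5% and 81.3% and T cells 20.1% and 37.5%. No class that lacks these genes is known, so the share that free RNA alone gives was not measured. Thinning left out 20 PBS and 106 anti–PD-1 Kupffer cells, and 45 and 52 tumor cells.

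**Figure D3:**
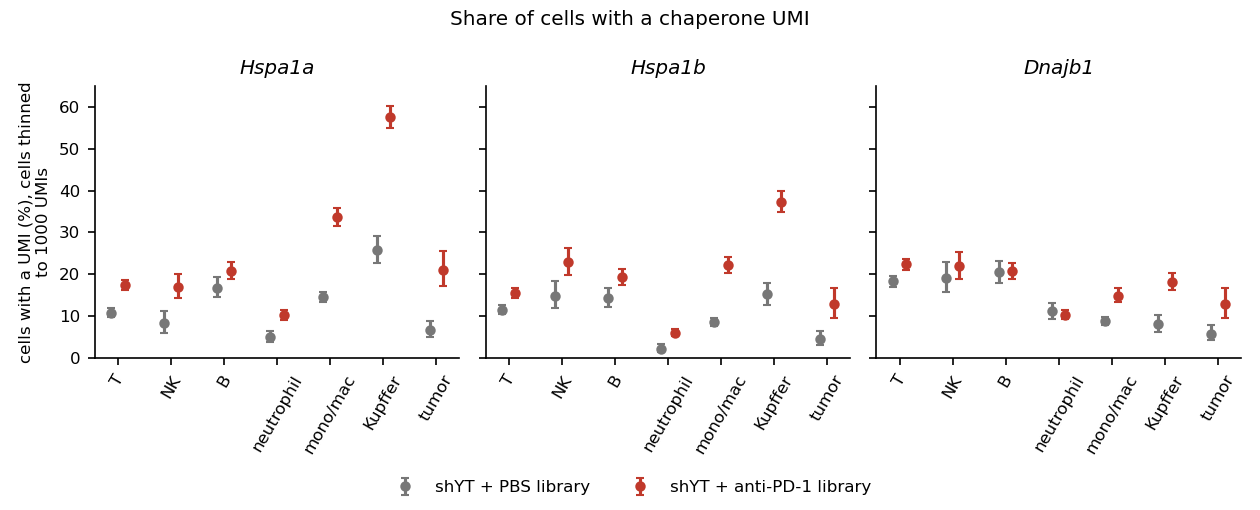
Share of cells with at least 1 UMI (%) of *Hspa1a*, *Hspa1b* and *Dnajb1* in 7 classes after each cell was thinned to 1000 UMIs, in the PBS library (grey) and the anti–PD-1 library (red). Bars are exact binomial 95% intervals over cells, which are not replicates. The red Kupffer point of *Hspa1a* is at 57.6%, and the points of *Dnajb1* in NK cells, B cells and neutrophils have overlapping bars.

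The UMIs of the *Hspa1* pair were spread unevenly over the cells of a class. Per 1000 UMIs the median T cell had 0 UMIs of the *Hspa1* pair in both libraries, and the 99th percentile was 4 with PBS and 7 with anti–PD-1. In monocytes/macrophages the 99th percentile was 4 and 11, and the 5% of cells with the most pair UMIs held 47.4% and 41.1% of them. Kupffer cells were the one described class whose median reached 1 in the anti–PD-1 library, where 32.8% of cells had none, against 65.5% in the PBS library. Summed over all 9 members, the median per 1000 UMIs was 7 and 8 in T cells, 4 and 6 in monocytes/macrophages, 6 and 8 in Kupffer cells, 5 and 6 in tumor cells, and 2 in both in neutrophils.

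The cofactors of HSP70 differed by less than 2-fold in the 7 classes. In cells with Y-linked and no *Xist* UMIs, however, *Hsph1* was at 1.27 in T cells, 1.71 in B cells, 1.74 in neutrophils and 1.32 in monocytes/macrophages. The B cell value rests on 116 PBS and 823 anti–PD-1 cells. That of neutrophils rests on 82 and 1177 cells, in a class with 69 *Hsph1* UMIs over all its PBS cells, so it is imprecise. After thinning to 1000 UMIs *Dnajb1* was at 1.34 in Kupffer cells and 1.07 in tumor cells. In the other direction, *Dnajb1* in tumor cells was at 0.34 with classes from clusters, and *Hsph1* in tumor cells at 0.17 after thinning. *Dnajb1* was at 95.4 and 165 CPM in monocytes/macrophages (log2 ratio 0.76, 0.69 to 0.83), at 128 and 239 CPM in Kupffer cells (0.88, 0.77 to 0.98) and at 63.8 and 123 CPM in tumor cells (0.90, 0.67 to 1.12). In T cells it was at 193 and 251 CPM (0.37). In B cells (0.13, −0.02 to 0.28) and neutrophils (−0.06, −0.23 to 0.12) its interval spans 0. *Hsph1* was at 58.7 and 107 CPM in monocytes/macrophages (0.82), at 182 and 248 CPM in T cells (0.44) and at 77.0 and 116 CPM in tumor cells (0.56, 0.34 to 0.79). *Hsph1* had higher levels in the 3 lymphocyte classes than in the 4 others in both libraries. The 3 lymphocyte classes were not told apart from each other in the PBS library, where they lay between 176 and 186 CPM.

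The constitutive HSP70 and HSP90 genes differed little in the described classes, to which the ranges here refer. *Hspa8* had log2 ratios from 0.26 in tumor cells to 0.45 in neutrophils, the narrowest range of the 9 members, and every interval was above 0. In T cells it was at 2535 and 3139 CPM and in Kupffer cells at 2499 and 3269 CPM. *Hsp90aa1*, the stress-responsive HSP90 gene, had log2 ratios from −0.01 in neutrophils to 0.35 in monocytes/macrophages. *Hsp90ab1*, its constitutive paralog, was at 2385 and 2449 CPM in T cells (0.04, 0.02 to 0.06) and at 2073 and 1904 CPM in tumor cells (−0.12, −0.17 to −0.07). Among the described classes, the 3 lymphocyte classes had the highest *Hsp90aa1* and *Hsp90ab1* levels in both libraries and neutrophils the lowest.

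*Hspe1* (HSP10) was higher in the anti–PD-1 library in all 7 classes, from 0.19 in NK cells (0.04 to 0.34) to 0.84 in neutrophils (0.65 to 1.04), and its interval was above 0 in each. *Hspd1* (HSP60) was at 152 CPM in monocytes/macrophages of both libraries (0.00, −0.07 to 0.07) and at 178 and 184 CPM in Kupffer cells (0.05, −0.05 to 0.15), where *Hspe1* had 0.50 and 0.63. Within the 2 macrophage clusters compared on their own, *Hspd1* was at 0.50 (0.31 to 0.70) and 0.13 (−0.05 to 0.30) and *Hspe1* at 0.80 (0.65 to 0.94) and 0.54 (0.41 to 0.67). In lymphocytes *Hspd1* had 0.29 to 0.41. *Hspe1* had its highest level of the 7 classes in tumor cells, at 504 and 853 CPM (0.75, 0.67 to 0.84). That value depends on the class definition, since with tumor cells taken from clusters (1896 PBS and 365 anti–PD-1 cells) *Hspe1* was at −0.07, while *Hspa1a* was at 1.73.

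Several classes drew on different clusters in the 2 libraries. T cells of cluster 4 numbered 2140 with PBS and 214 with anti–PD-1, whereas those of cluster 8 numbered 90 and 1075. Monocytes/macrophages of cluster 13 numbered 2108 and 98 and those of cluster 14 64 and 1070. Neutrophils of cluster 9 numbered 1090 and 32 and those of cluster 7 114 and 2282, and tumor cells of cluster 10 565 and 28 and those of cluster 11 50 and 326. Cluster 11 (247 PBS and 2113 anti–PD-1 cells) was given to no class and also held 224 Kupffer cells, 228 monocytes/macrophages and 80 neutrophils of the anti–PD-1 library. Members were therefore also compared within clusters that gave at least 100 cells of a class in both libraries, a choice made after the values were seen.

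Within single clusters *Hspa1a* was higher in the anti–PD-1 library in each of 9 comparisons, none of them of tumor cells, for which no cluster had 100 cells in both libraries. In the 3 T cell clusters its log2 ratios were 1.64 (1.38 to 1.89), 1.37 (1.16 to 1.59) and 1.50 (1.32 to 1.68), each above the 1.10 of all T cells, and *Hspa1b* was at 1.15, 1.09 and 1.09, against 0.68. In the 2 macrophage clusters *Hspa1a* was at 1.43 and 1.53, below the 1.77 of the class. Among the cells not compared were T cells of cluster 8 (90 PBS and 1075 anti–PD-1 cells). Monocytes/macrophages of clusters 13 (2108 and 98) and 14 (64 and 1070) were not compared either. The compared clusters therefore do not stand for these 2 classes as wholes. NK cells (1.39) and B cells (0.56) lay almost wholly in 1 cluster each. Kupffer cells of cluster 0 (708 of 744 and 1245 of 1510) were at 1.65, while cluster 11 held 12 and 224 of the class. The neutrophil cluster gave 1.43 (0.61 to 2.35) on 10 PBS UMIs. *Hsph1* was less even, with 0.82 in T cell cluster 1 and −0.18 (−0.34 to −0.02) in T cell cluster 2. *Hsp90ab1* stayed between −0.09 and 0.49.

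**Figure D4:**
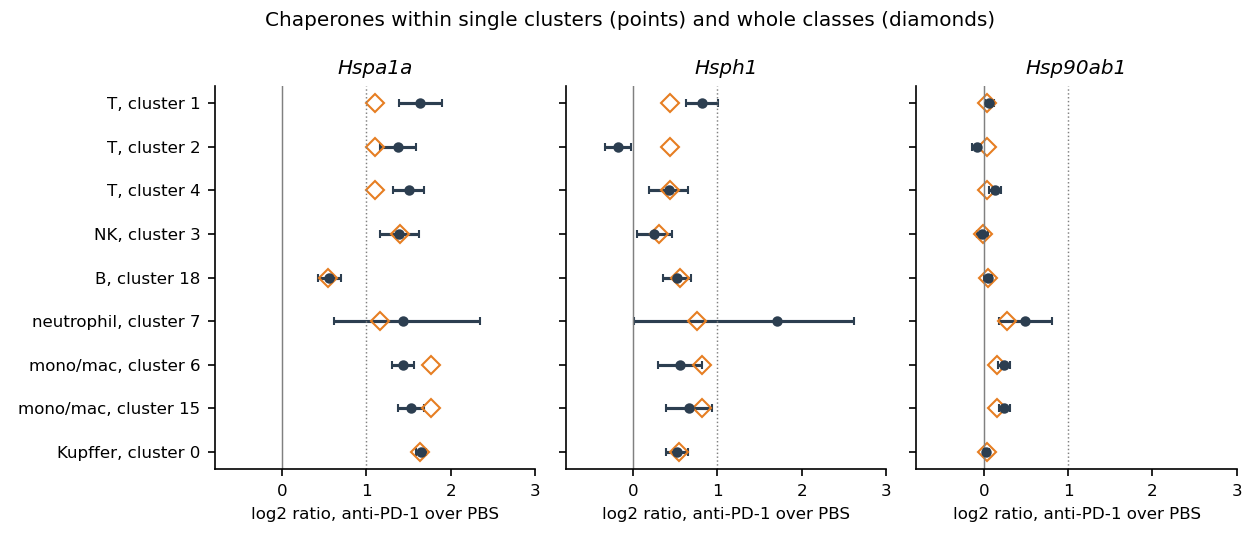
Log2 ratio (anti–PD-1 over PBS, CPM + 5) of *Hspa1a*, *Hsph1* and *Hsp90ab1* within single clusters that gave at least 100 cells of a class in both libraries (points with 95% counting intervals) and in the whole class (orange diamonds). Lines mark 0 and 1. For *Hspa1a* the 3 T cell clusters compared, which leave out cluster 8, lie at 1.37 to 1.64, to the right of the diamond of their class at 1.10.

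Among T cells gated by their transcripts, regulatory T cells with a *Foxp3* UMI (263 PBS and 285 anti–PD-1 cells) had 66.4 and 216 CPM of *Hspa1a*, a log2 ratio of 1.63 (1.29 to 1.98). T cells with a *Cd4* and no CD8 UMI (865 and 995 cells) had 113 and 303 CPM, a log2 ratio of 1.39 (1.23 to 1.55). Those holding *Cd8a* or *Cd8b1* UMIs (1047 and 1552 cells) had 128 and 243 CPM, a log2 ratio of 0.90 (0.76 to 1.04), whose interval does not overlap that of the *Cd4* gate. *Hsph1* followed the same order, with 0.88, 0.69 and 0.15. For both genes the intervals of the *Foxp3* and *Cd4* gates overlap, so the order of these gates is not resolved. A cell can be in more than 1 of these gates, and a gate on UMIs takes more cells from the deeper library.

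Depth moved with the result. In cells of at least 1000 and under 2000 UMIs (3723 and 3632 cells, all classes) *Hspa1a* was at 1.11 and *Dnajb1* at 0.08. In cells of 5000 or more UMIs (5588 and 4791 cells) they were at 1.85 and 0.90. Deep and shallow cells belong to different classes, so these ranges do not separate depth from class. The median was 7756 and 7572 UMIs in monocytes/macrophages and 1586 and 2121 in neutrophils. With cells thinned to 1000 UMIs, *Hspa1a* was at 1.10 in T cells (unthinned 1.10), 1.37 in NK cells (1.40), 0.43 in B cells (0.55) and 1.34 in neutrophils (1.16). It was at 1.88 in monocytes/macrophages (1.77), 1.74 in Kupffer cells (1.63) and 1.96 in tumor cells (1.95). The part of depth in the ratios was not tested.

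Few other genes of protein quality control were past 2-fold, and few measured genes of any kind were. Over all measured genes 1.72% were 2-fold higher in T cells, 3.62% in monocytes/macrophages, 2.98% in tumor cells and 2.33% in NK cells. The shares 2-fold lower were 0.77%, 0.532%, 1.94% and 2.04%, in that order. Of 27 cochaperones, chaperonin subunits and small heat shock proteins linked to HSF1, 26 were measured in T cells with 0 past 2-fold and a median log2 ratio of 0.01. In monocytes/macrophages 1 of 26 was past 2-fold (median 0.07), and in tumor cells 0 of 27 (median 0.01). In NK cells 2 of 26 were past 2-fold, *Dnajb4* (1.32) and *Bag3* (1.09), which are named for NK cells after their values were seen. In Kupffer cells 1 of 26 was 2-fold higher (beside 2.02%), and in neutrophils 2 of 25 were 2-fold lower (beside 4.65%). In monocytes/macrophages the 1 was *Bag3*, a nucleotide exchange factor of HSP70 in autophagy, at 42.5 and 96.0 CPM (1.09, 0.99 to 1.19). *Bag3* was at 0.95 in T cells and 0.83 in tumor cells. *Dnaja1*, another HSP40, was at 608 and 892 CPM in T cells (0.55) and 294 and 497 CPM in monocytes/macrophages (0.75), and the small heat shock protein *Hspb1* was at 162 and 295 CPM in tumor cells (0.85). At the other end stood *Cryab* (−0.59) and *Hspbp1* (−0.36) in T cells, *Cct6a* (−0.23) and *Hspa4* (−0.21) in monocytes/macrophages, and *Fkbp5* (−0.62) and *Hspb8* (−0.56) in tumor cells. *Hsf1* itself was at 40.1 and 37.8 CPM in T cells (−0.08), 24.4 and 25.0 CPM in monocytes/macrophages (0.03) and at a log2 ratio of 0.10 in tumor cells, with intervals that span 0.

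The chaperones of the endoplasmic reticulum had medians of 0.17 in T cells, 0.04 in monocytes/macrophages and 0.26 in tumor cells, with 0 of 18 past 2-fold in each, beside medians over all measured genes of −0.12, −0.13 and −0.03. Ratios above 0 were found for 13, 12 and 16 of the 18. In neutrophils 1 of 18 was 2-fold lower, beside 4.65% of measured genes. *Hspa5* (BiP) was at 658 and 979 CPM in T cells (0.57), and *Herpud1*, a factor of ER-associated degradation, was at 0.61 in monocytes/macrophages and 0.77 in tumor cells. The mitochondrial chaperones and proteases had medians of −0.31, −0.09 and 0.05, with 0 of 8 past 2-fold, and *Hspa9* (mortalin) was at −0.07, −0.02 and 0.47. The list of ubiquitin and proteotoxic stress had medians of 0.02, 0.08 and −0.01, with 0 of 10 past 2-fold in T cells and monocytes/macrophages and 1 of 10 in tumor cells. *Ubb*, which encodes polyubiquitin, was at 0.68 in monocytes/macrophages. *Psmb5*, a proteasome subunit, was at −0.22, −0.11 and −0.37. Of the cold-inducible RNA-binding proteins, *Cirbp* was at 53.4 and 27.0 CPM (−0.87) and *Rbm3* at −0.33 in monocytes/macrophages, and they were at −0.53 and −0.48 in tumor cells, at −0.06 (−0.19 to 0.07) and −0.19 in T cells, and at 0.14 and 0.15 in B cells.

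Immediate early genes, which cells transcribe within minutes of many stimuli including tissue dissociation, were also higher in the anti–PD-1 library in several classes. All 14 had a log2 ratio above 0 in T cells, monocytes/macrophages and tumor cells, with 5, 10 and 13 of 14 past 2-fold, beside 1.72%, 3.62% and 2.98% of all measured genes, and medians of 0.73, 1.36 and 1.92. Their summed level was 3585 and 7189 CPM in T cells, 5654 and 14804 CPM in monocytes/macrophages and 2774 and 9402 CPM in tumor cells, and none of the 14 was at 0. In neutrophils, with 14087 and 16382 CPM, the median was 0.25. There 8 of 14 had a ratio above 0 and 6 below, with 1 higher by 2-fold (beside 3.02%) and 2 lower (beside 4.65%). Kupffer cells had 9 of 14 past 2-fold (beside 2.02%, median 1.15) and NK cells 8 of 14 (beside 2.33%, median 1.02). B cells had 4 of 14 (beside 1.57%, median 0.70), with *Hspa1a* at 0.55. In the small class of plasmacytoid dendritic cells (80 PBS and 63 anti–PD-1 cells) 8 of 14 were past 2-fold, beside 6.64% of all measured genes, with a median of 1.18. There *Hspa1a* was at 0.08 (−0.21 to 0.37) and *Hspa1b* at 0.46 (0.13 to 0.78). CAFs had 14 of 14 (beside 3.63%, median 2.44), with *Hspa1a* at 2.14. Endothelial cells had 11 of 14 (beside 3.82%, median 1.71), with *Hspa1a* at 2.46. Plasma cells had 8 of 14 (beside 3.27%, median 1.04), with *Hspa1a* at 1.20. Conventional dendritic cells had 4 of 14 higher (beside 3.04%) and 2 lower (beside 4.11%), with a median of 0.73 and *Hspa1a* at 1.00. *Nr4a1* was at 446 CPM in anti–PD-1 T cells against 79.0 CPM (2.43), and *Atf3* at 1060 CPM in anti–PD-1 tumor cells against 81.9 CPM (3.62). *Jun* was at 0.08 in T cells and 0.02 in monocytes/macrophages. Reference genes such as *Actb* and *Gapdh* had medians of −0.11, 0.03 and −0.16, with 0 of 10 past 2-fold. The part of the immediate early response or of the preparation in the chaperone ratios was not tested.

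**Figure D5:**
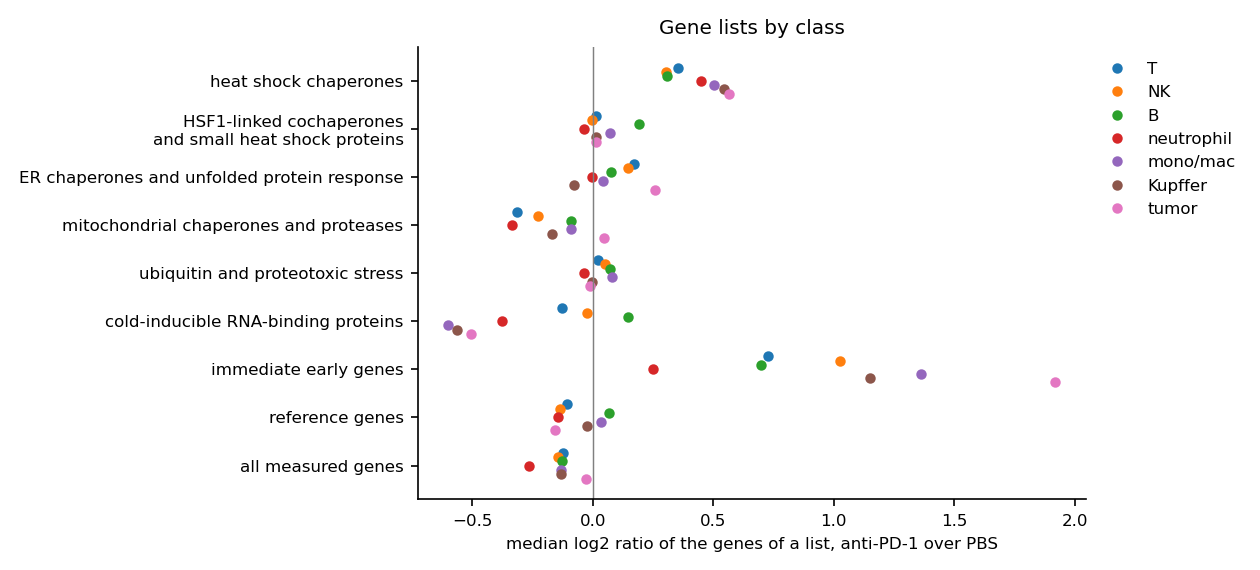
Median log2 ratio (anti–PD-1 over PBS, CPM + 5) of the measured genes of each list, 1 point per cell class (colors), 1 library per group. The 9 chaperones lie between 0.30 and 0.56, the immediate early genes between 0.25 and 1.92, and the median of all measured genes between −0.27 and −0.03.

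Cells in the same range of immediate early UMIs were also set side by side. Within a range their numbers of such UMIs were not matched. Among T cells thinned to 1000 UMIs and holding 5 to 19 immediate early UMIs, the mean number of *Hspa1* pair UMIs was 0.28 with PBS (1090 cells) and 0.60 with anti–PD-1 (2596 cells). Among monocytes/macrophages it was 0.37 (1772 cells) and 0.92 (1197 cells), and among tumor cells 0.20 (105 cells) and 0.50 (182 cells). With 1 to 4 such UMIs the means were 0.34 and 0.41 in T cells, 0.28 and 0.92 in monocytes/macrophages, and 0.13 and 0.47 in tumor cells. With none they were 0.26 (355 cells) and 0.57 (30 cells) in T cells, 0.17 (357 cells) and 0.11 (9 cells) in monocytes/macrophages, and 0.075 (160 cells) and 0.067 (15 cells) in tumor cells. With 20 or more they were 0.20 (10 cells) and 1.94 (86 cells) in T cells. Monocytes/macrophages then had 0.83 (92 cells) and 1.92 (515 cells), and tumor cells 0.43 (7 cells) and 0.68 (44 cells). B cells had 0.51 and 0.73 with 5 to 19 such UMIs, and 0.53 and 0.55 with 1 to 4. With none, B cells had 0.46 (76 cells) and 0.16 (19 cells).

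Across the 14 profiles of 7 classes in 2 libraries, the genes most like *Hspa1a* (the member with the highest median ratio) out of 8391 were *Il10* (Pearson r of log2 levels 0.89), *Klf4* (0.88), *Dhx58* (0.86), *Gbp3* (0.86) and *Rnf213* (0.85). Those most like *Hsp90ab1* (the lowest) were the chaperonin subunits *Cct5* and *Cct3* (both 0.98), the HSP70 cofactor *St13* (0.98), *Eif3g* (0.98) and *Rrp9* (0.97). Among members, *Hsph1* and *Hsp90aa1* were most alike (0.94) and *Hspa1a* and *Hspd1* least (0.14), while *Hspa1a* and *Hspa1b* had 0.88. Profiles of 1 class share a cell type and those of 1 library a preparation, so these values are descriptions.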

How the data were processed

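Single-cell RNA-Seq of tumor-bearing mouse livers (GEXSCOPE kit V2) was analysed from 2 libraries, 1 per group, grouped by their labels. The deposited values are raw UMI counts per gene and barcode, which the authors made with the Singleron software against mm10, and the version, annotation and handling of shared reads are not given in the sources used here. Seurat 4.3 is named in the submitters' processing notes and was not used here. The members, lists and markers were chosen with earlier results of these data known.

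Cells with 500 to 5000 genes and at most 10% mitochondrial UMIs were kept. A cell took the class with the highest mean of scaled marker levels, out of 17 classes, if 3 markers were detected and the lead over the next class was at least 0.05, and 13100 of 15531 PBS and 13693 of 16360 anti–PD-1 cells were assigned. In the monocyte/macrophage class 1 of the 10 leading genes was a marker of its own and 0 were of another class. UMIs were summed per class and library and scaled to CPM, with exact Poisson intervals. Log2 ratios added 5 CPM, their intervals came from the exact binomial interval of the split of UMIs, and genes of 10 CPM or more on average were measured. Shares carry exact (Clopper-Pearson) intervals, and all intervals are at 95%. PCR and capture error, animals and preparations are not in them. Clusters came from the Leiden method (leidenalg 0.10.2, scanpy 1.11.5) on both libraries without integration. All 9 members were named in each class, other lists were described by some of their 3 highest and 3 lowest genes in T cells, monocytes/macrophages and tumor cells, and 2 members by the 5 genes most like them. Not all genes of this rule are printed, and 1 is not reported here. The ratio and its interval were tested on simulated counts drawn with counting error alone, the error that the interval assumes. Spread between animals, preparations or cells was not simulated. Alternatives covered filters, gate, scaling, pseudocount, doublets, free RNA, depth, cells with the most member UMIs and XY-type cells (those holding Y-linked UMIs and lacking *Xist*).

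Doublets were scored in each library (scanpy), but the automatic threshold marked 0 cells, so the main setting kept all cells and an alternative chosen after seeing the data left out the 5% with the highest scores (808 and 841 cells). Gene coordinates are from GENCODE (GRCm38), and upstream sequences from the RefSeq promoter table (GRCm38.p6), in which 6 of 9 members have an entry.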

Additional observations from a re-analysis of the deposited data

How the results depend on the processing

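No paired analysis was possible because each group is 1 library. Of the 2-fold counts, those of B cells (0), T cells and NK cells (1 each) and neutrophils (2) were the least stable, and the cause was not tested. With 1.5-fold in place of 2-fold, the count was 4 over all kept cells and in neutrophils, monocytes/macrophages, Kupffer cells and tumor cells (beside 4.64% to 7.3% of measured genes), 2 in T cells (4.25%) and NK cells (5.5%) and 1 in B cells (4.2%). In XY-type cells, which hold Y-linked UMIs and lack *Xist* (1481 with PBS, 7861 with anti–PD-1), the count was 5 in B cells (116 and 823 cells, beside 3.93%). It was 2 in T cells (2.12%) and NK cells (4.84%). Over all kept cells (3.24%), in neutrophils (82 and 1177 cells, 6.13%) and in monocytes/macrophages (4.52%) it was 3. Without the 5% of cells with the most member UMIs it was 0 in T cells (1.73%) and NK cells (2.21%), with *Hspa1a* at 0.87 and 0.89. With free RNA subtracted it was 0 in T cells (beside 1.26%) and 1 in neutrophils (3.22%), namely *Hspe1* (1.12), while *Hspa1a* reversed to −0.46 and *Hspa1b* to −0.35. Without likely doublets it was 0 in neutrophils (beside 2.81%, *Hspa1a* 0.99, *Hspa1b* 0.91). With median-ratio scaling it was 4 in neutrophils (4.81%). 

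Median-ratio scaling raised every log2 ratio, by a median of 0.15. Under these alternatives *Hspa1a* ranged from 1.48 to 1.92 in monocytes/macrophages, 1.55 to 1.79 in Kupffer cells, 1.73 to 2.75 in tumor cells and 1.39 to 1.81 over all kept cells, while single clusters (1.43 in macrophages) and ranges of depth (1.11 at 1000 to 2000 UMIs, all kept cells) went lower. In B cells it ranged from 0.27 to 2.05 and in neutrophils from −0.46 to 1.50. *Hsph1* was higher in XY-type cells than in all cells, at 1.27 against 0.44 in T cells, 1.71 against 0.56 in B cells and 1.32 against 0.82 in monocytes/macrophages. *Dnajb1* in tumor cells ranged from 0.34 to 1.07. The 82 PBS UMIs of *Hspa1b* in neutrophils gave the widest interval of the pair in the 7 classes.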
